A study of Mus musculus with 5 samples.

Results

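The extracellular matrix around fibroblasts holds collagens together with glycoproteins, elastic fibre components, proteoglycans and the enzymes that assemble, crosslink and cut them. The non-collagen genes of that matrix were followed here: 41 members, of 29267 genes in the deposited tables, listed by symbol and role under a rule that sets no threshold on measured values. They comprised 9 glycoproteins, 9 elastic fibre components, 5 proteoglycans, 4 lysyl oxidases, 9 proteases, 3 protease inhibitors and 2 basement membrane linkers. All 41 had counts in all 5 libraries.

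The cells were ICR mouse embryonic fibroblasts, a mixed connective tissue culture grown from embryos, undergoing reprogramming, and RNA was sequenced as 1 library in each of 5 groups. The day-8 groups were mastoparan-treated cells (mastoparan is a peptide of wasp venom), paraquat-treated cells (paraquat is a herbicide that cycles electrons to oxygen) and control cells with no treatment. The day-4 groups were cells expressing CypD and cells expressing Flag. CypD is cyclophilin D, a regulator of the mitochondrial permeability transition pore that the gene Ppif encodes. The genotype label gives CypD expression for the 3 day-8 groups too, so that they would share it, but the series' design text does not name it for them. Ppif had 95 counts in mastoparan, 79 in paraquat and 90 in control at day 8, against 2629 in CypD and 112 in Flag at day 4, so the transcript was not raised at day 8. The series title asks which genes the mitoflash, a short burst of mitochondrial superoxide signal, regulates. The sources used here do not give the reprogramming factors, the doses or the number of embryos behind each library.

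As background, fibronectin and thrombospondins connect cells to the matrix through integrins and other receptors. Fibrillin microfibrils form the scaffold on which elastin is laid down with the help of fibulins, and lysyl oxidases crosslink elastin and collagen. Matrix metalloproteinases and ADAMTS enzymes cut these proteins, and the tissue inhibitors of metalloproteinases (TIMPs) block them. In embryonic fibroblasts the set is abundant, and reprogramming toward pluripotency is known to pass through a mesenchymal-to-epithelial transition in which fibroblast genes decline.

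Total counts, after rounding, lay between 2425950 and 3426650 per library, so 3 counts stood for 0.869 to 1.30 CPM (counts for each 1000000 of the scaled library). The members summed to 6203 scaled CPM in mastoparan, 5560 in paraquat and 6135 in control at day 8, and to 5697 in CypD and 5850 in Flag at day 4. The 11 fibroblast markers were all detected, with summed levels from 6155 to 6320 CPM at day 8 and from 6658 to 6690 CPM at day 4. Vim had the most counts of that list in every library, so the sum can hide differences in its other genes. The 9 epithelial markers summed to 657 CPM in mastoparan, 751 in paraquat and 651 in control, against 193 in CypD and 208 in Flag. Pluripotency markers stayed between 3.76 and 9.73 CPM in sum, with Lin28a at 0. The smooth muscle list spanned 325 to 414 CPM and the endothelial list, with Cdh5 and Emcn at 0, 48.5 to 60.7 CPM, while the macrophage list spanned 6.31 to 18.5 CPM with Adgre1 at 0. Most endothelial counts were those of Tek, with 107 to 181 per library, against 2 to 15 for Pecam1 and at most 2 for Kdr. In bulk RNA, fewer cells of a type and less RNA per cell cannot be told apart. With 1 library per group no difference below has a replicate check or a test, and the 95% intervals of folds cover counting error only.

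Among the members, Sparc, which encodes a collagen-binding matricellular glycoprotein, had the highest level in TPM, a unit scaled to transcript length and to the library's sum. Its deposited TPM was 1098 in mastoparan, 914 in paraquat and 1074 in control at day 8, and 856 in CypD and 851 in Flag at day 4. Timp1, Mgp (an inhibitor of calcification), Bgn and Fn1 (fibronectin) came next, with means over the 5 libraries of 407, 295, 233 and 228 TPM. The leading members of the other classes were Fbln2 among elastic fibre genes (mean 192 TPM), Mmp2 among proteases (132 TPM), Loxl3 among lysyl oxidases (38.7 TPM) and Nid2 among basement membrane genes (21.3 TPM). At the low end stood Mmp3, a stromelysin, with 1 count in mastoparan, 1 in paraquat and 2 in control, and 6 in CypD and 2 in Flag. By their means the glycoproteins spanned 2.53 TPM (Matn2) to 959 TPM (Sparc) and the proteases 0.64 TPM (Mmp3) to 132 TPM (Mmp2), while the lysyl oxidases lay between 14.3 and 38.7 TPM. The span between the lowest and the highest library was widest for Ogn, at 2.63 on the log2 scale of scaled CPM, and narrowest for Mmp2, at 0.22.

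**Figure D1:**
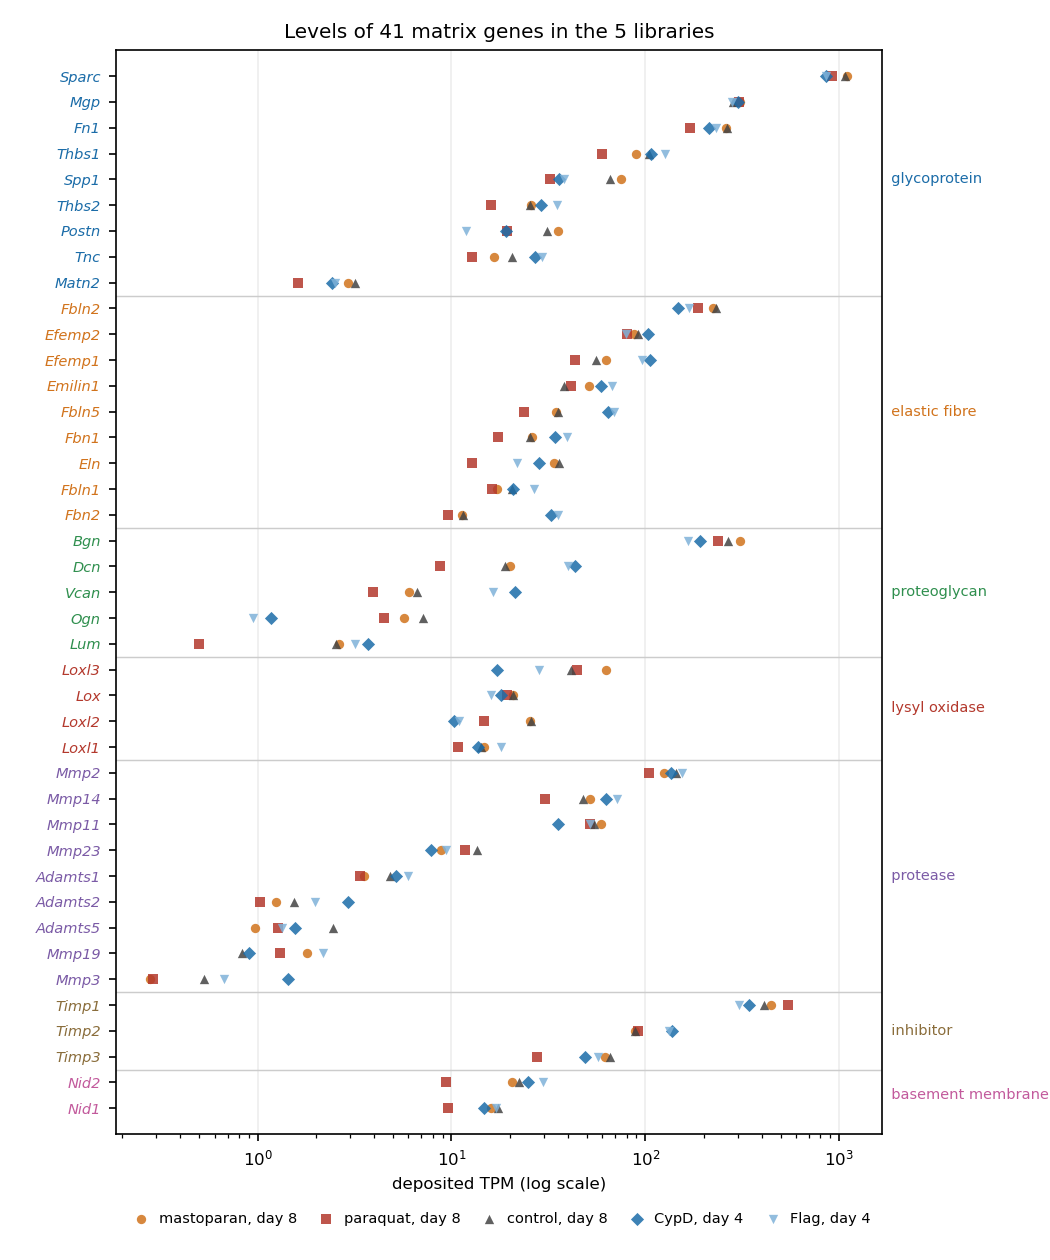
Deposited TPM (log scale) of the 41 matrix genes, grouped by class, with 1 point for each of the 5 libraries. Sparc stands highest in every library and Mmp3 lowest in all but CypD, and the paraquat squares of Eln, Timp3, Nid2, Dcn and Lum lie left of the other 4 points.

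Of the treated and CypD libraries, paraquat had the most matrix genes past 1.5-fold against its control or Flag library. The elastin, decorin and osteopontin genes had lower levels in paraquat, while the inhibitor Timp1 was higher. With the length trend over all genes removed, Timp1 no longer passed 1.5-fold. The inhibitor Timp3 and the nidogen gene Nid2 were lower too, but both share sequence with a neighbouring gene. Lumican was lower from 2 counts against 11, and Nid1 was 1.48 times lower, short of 1.5-fold. Of 40 members that reached a mean of 1 CPM over both libraries, 9 were at least 1.5-fold lower and 2 at least 1.5-fold higher in paraquat than in control, against 10.5% and 8.22% of 13666 genes. In all, 28 members were below and 12 above the control, where 52.5% of all genes were below. The median log2 ratio of the members was -0.33 (order-statistic 95% interval over members, -0.45 to -0.06), and that of all genes -0.03. Mastoparan and paraquat were set against the same control, so their values are given side by side and their likeness is not measured. On deposited TPM 18 members were lower and 0 higher past 1.5-fold, but there the median of all genes was itself at -0.28. Relative to that shift 6 were lower and 2 higher. Fibroblast markers summed to 6155 CPM in paraquat and 6320 in control and epithelial markers to 751 and 651 CPM. Within the fibroblast list Vim had 8279 counts in paraquat and 10501 in control, Col1a1 1582 and 2476, and Col3a1 611 and 1108. Scaled to the libraries, Vim was higher and Col1a1 and Col3a1 lower in paraquat, and the rest of the list went both ways. The part of these markers in the results was not tested.

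Elastin, the protein that gives elastic fibres their recoil, was the elastic fibre member with the largest difference. Eln (chr5:134702593-134747323, minus strand, GRCm38) had 61.8 scaled CPM in mastoparan, 27.3 in paraquat and 63.2 in control at day 8, and 49.5 in CypD and 37.1 in Flag at day 4. Paraquat thus stood lowest of all 5 libraries. From 63 counts in paraquat and 195 in control, Eln was 2.32 times lower in paraquat (95% interval, 1.74 to 3.13). The other elastic fibre members differed less: Efemp1 (fibulin-3) was 1.42 times lower (1.10 to 1.86), Fbln2 1.27 times lower (1.16 to 1.40) and Fbln5 1.23 times lower (1.06 to 1.44). The fibrillin genes, whose products build the microfibril scaffold, stood at log2 ratios of -0.26 for Fbn1 and 0.02 for Fbn2. Fbn1 shares 19.7% of its 49-base windows with the predicted gene Gm9913, which had at most 4 counts in any library. Of the 9 members of the class 6 lay below the control and only Eln passed 1.5-fold.

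All 5 proteoglycan genes lay at or below their control level in paraquat. Dcn (chr10:97479609-97518143, plus strand), whose product decorin binds collagen fibrils, had 26.7 scaled CPM in mastoparan, 13 in paraquat and 24.0 in control, and 54.2 in CypD and 48.9 in Flag. It was 1.85 times lower in paraquat than in control (1.19 to 2.92), from 30 and 74 counts. Vcan, the gene of the hyaluronan-binding proteoglycan versican, was 1.57 times lower (1.01 to 2.47), from 32 and 67 counts. Lum had the largest log2 ratio of the class, -1.57, but only 2 counts in paraquat and 11 in control, and its interval included 1. Bgn (biglycan) was the exception in size: it was the most abundant of the class and stood at 322 scaled CPM in both libraries.

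Among glycoproteins 7 of 9 lay below the control. Spp1 (chr5:104435118-104441050, plus strand), which encodes osteopontin, had 73.3 scaled CPM in mastoparan, 37.3 in paraquat and 61.9 in control, and 33.9 in CypD and 34.7 in Flag. It was 1.66 times lower in paraquat than in control (1.28 to 2.17), from 86 and 191 counts, and so stood near the level of both day-4 libraries. Spp1 shares 11.7% of its 49-base windows with other loci, which leaves some uncertainty in its counts. Thbs1 (thrombospondin-1) was 1.43 times lower (1.30 to 1.57), Fn1 1.27 times lower (1.19 to 1.36) and Postn (periostin) 1.37 times lower (1.06 to 1.78). Matn2, a matrilin, passed 1.5-fold with 11 counts in paraquat and 24 in control, with an interval that included 1. Sparc had a log2 ratio of 0.05, which was -0.06 with library totals alone and -0.23 on TPM. The medians of all genes under these scalings were -0.13 and -0.28. Mgp was 1.30-fold higher (1.11 to 1.52), but its log2 ratio of 0.38 became -0.16 once the length trend over all genes was removed.

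The 3 TIMP genes, which inhibit metalloproteinases, differed from each other in paraquat: Timp1 was higher, Timp2 near its control level and Timp3 lower. Timp1 had 258 scaled CPM in mastoparan, 373 in paraquat and 231 in control, and 192 in CypD and 163 in Flag. From 862 counts in paraquat and 713 in control it was 1.62-fold higher in paraquat (1.46 to 1.79), the highest of the 5 libraries. Timp2, which also takes part in the activation of Mmp2 by Mmp14, had 147 scaled CPM in mastoparan, 158 in paraquat and 156 in control, and 241 in CypD and 239 in Flag. Its log2 ratio of paraquat over control was 0.02. Timp3, whose product stays bound to the matrix, had 209 scaled CPM in mastoparan, 110 in paraquat and 213 in control, and 157 in CypD and 175 in Flag. It was 1.94 times lower in paraquat than in control (1.68 to 2.25), from 253 and 656 counts. Timp3 shares sequence with Syn3, the gene of a synapsin within which it lies, which holds 20.8% of its 49-base windows. Syn3 had 215 counts in paraquat, 92 in mastoparan and 93 in control. Summed over both genes the counts were 468 in paraquat and 749 in control, 1.20 times lower (1.07 to 1.35), so that the size of the Timp3 difference depends on how the reads were divided.

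Because the inhibitor genes differed in this way, the 250 bases before their RefSeq starts are shown, on GRCm38.p6, 5′ to 3′ along the gene's own strand. Timp1 is at chrX:20869916-20870165 (plus strand), Timp2 at chr11:118355412-118355661 (minus strand) and Timp3 at chr10:86300162-86300411 (plus strand). In GENCODE, Timp2 starts at 118355740 and Timp3 at 86300372. By those starts the whole Timp2 window and the end of the Timp3 window, with its GC box, lie inside the genes. Capitals mark matches on either strand to 4 motifs: TATAAA of the core promoter, the CCAAT box, the GC box with the letters GGGCGG, and the AP-1 site with TGANTCA.
Timp1: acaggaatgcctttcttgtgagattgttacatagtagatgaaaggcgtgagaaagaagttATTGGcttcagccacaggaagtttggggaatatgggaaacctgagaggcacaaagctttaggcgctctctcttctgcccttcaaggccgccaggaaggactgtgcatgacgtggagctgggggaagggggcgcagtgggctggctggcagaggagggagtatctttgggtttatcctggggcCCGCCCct
Timp2: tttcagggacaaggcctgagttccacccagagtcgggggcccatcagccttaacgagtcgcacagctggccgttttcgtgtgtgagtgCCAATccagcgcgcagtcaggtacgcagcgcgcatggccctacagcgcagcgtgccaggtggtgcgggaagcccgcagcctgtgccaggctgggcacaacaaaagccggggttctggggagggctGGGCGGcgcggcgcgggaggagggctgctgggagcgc
Timp3: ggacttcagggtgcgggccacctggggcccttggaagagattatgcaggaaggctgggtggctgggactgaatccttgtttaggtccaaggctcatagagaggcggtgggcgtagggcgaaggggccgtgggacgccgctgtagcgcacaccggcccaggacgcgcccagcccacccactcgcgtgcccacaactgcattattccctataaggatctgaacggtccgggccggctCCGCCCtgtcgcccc
Each of the 3 had 1 GC box, which began 8 bases before the RefSeq start in Timp1, 37 in Timp2 and 15 in Timp3. The GC box lay on the opposite strand in Timp1 and Timp3. A CCAAT box began 190 bases before the start of Timp1, on the opposite strand, and 162 bases before that of Timp2, and the core promoter and AP-1 motifs had no match in these windows. G and C made up 54.4% of the window in Timp1, 68.0% in Timp2 and 65.6% in Timp3. Of 32851 windows of the same length 32.7% held the GC box, 33.8% the CCAAT box, 12.4% TATAAA and 6.75% the AP-1 site. For the 33 windows of the 25 members found in the table these shares were 60.6%, 24.2%, 24.2% and 6.06%. A match is a description of letters and says nothing of a factor's binding.

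Nid1 and Nid2 encode the nidogens, which link laminin to collagen IV in basement membranes. Nid2 (chr14:19751265-19811787, plus strand) had 71.2 scaled CPM in mastoparan, 38.6 in paraquat and 74.9 in control, and 83.7 in CypD and 95.5 in Flag. Paraquat was again the lowest library, and from 89 counts against 231 in control Nid2 was 1.94 times lower (1.52 to 2.51). Its neighbour Rtraf, which holds 7.52% of its windows, had 816 counts in paraquat and 861 in control, and the sum of both genes was 1.11-fold higher in paraquat (1.01 to 1.21). Rtraf gives most of the 905 and 1092 summed counts, so the sum mainly follows Rtraf and cannot decide whether Nid2 itself differed. Nid1, which shares 3.27% of its windows with other genes, had 49 scaled CPM in paraquat and 72.6 in control and was 1.48 times lower (1.18 to 1.88).

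Among the crosslinking enzymes and the proteases no member passed 1.5-fold in paraquat with an interval that did not include 1. Loxl2, with 152 counts in paraquat and 291 in control, was 1.43 times lower (1.17 to 1.76). It shares 45.1% of its windows with many other loci, among them Gm27177, with 21 counts in paraquat, 0 in mastoparan and 2 in control. Lox and Loxl3 had log2 ratios of 0.18 and 0.17, the first of which was below 0 on TPM, where the median of all genes was -0.28. Mmp14, the membrane-anchored enzyme that activates Mmp2, was 1.28 times lower (1.04 to 1.57), and its substrate Mmp2, a gelatinase, 1.14 times lower (1.03 to 1.27). Adamts5, an aggrecanase, and Mmp19 passed 1.5-fold in opposite directions with 20 counts in paraquat against 42 in control and 9 against 6, and both intervals included 1. Mmp19 shares 21.2% of its windows with its neighbour Tmem198b. The summed counts of both, most of them from Tmem198b, had a log2 ratio of -0.17.

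**Figure D2:**
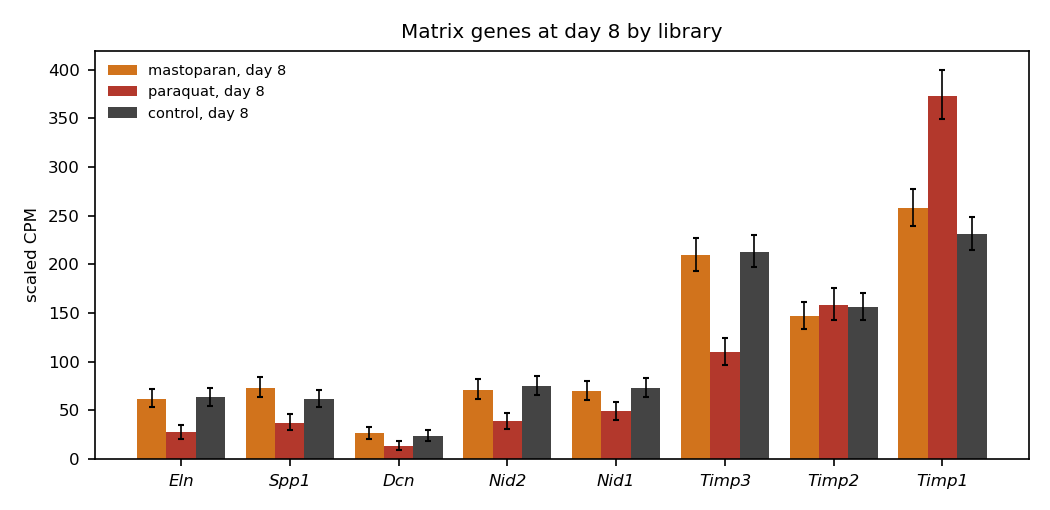
Scaled CPM of 8 matrix genes in the 3 day-8 libraries, with bars for each library and exact Poisson 95% intervals of its count, which cover counting error only. The paraquat bars of Eln (27.3), Spp1 (37.3), Dcn (13), Nid2 (38.6), Nid1 (49) and Timp3 (110) lie below the mastoparan and control bars, that of Timp1 (373) lies above them, and the 3 bars of Timp2 lie between 147 and 158.

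The paraquat ratios varied with transcript length. Across 13666 genes the log2 ratio of paraquat over control correlated with the mean transcript length at a Pearson r of -0.29 and a Spearman rho of -0.38, as a description over genes of the same 2 libraries. Over the 40 members the values were -0.28 and -0.30, and the members were longer, with a median length of 3121 bases against 2426 over all genes. With the median of 40 length bins subtracted, the members' median log2 ratio was -0.15, and 7 members were lower and 1 higher past 1.5-fold. Efemp1 (-0.64) had not passed before. Eln (-1.12), Timp3 (-0.74), Nid2 (-0.73), Dcn (-0.86), Spp1 (-0.81) and Lum (-1.55) stayed past 1.5-fold. So did Mmp19 (1.01), the 1 higher member, with 9 counts in paraquat and 6 in control. Vcan (-0.50), Matn2 (-0.51) and Adamts5 (-0.38) did not, and neither did Timp1, a short transcript of 858 bases, which went to 0.33. On deposited TPM Timp1 did not pass either, but relative to the median of all genes there (-0.28) its log2 ratio was 0.68, past 1.5-fold. The part of length in the result was not tested further.

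**Figure D3:**
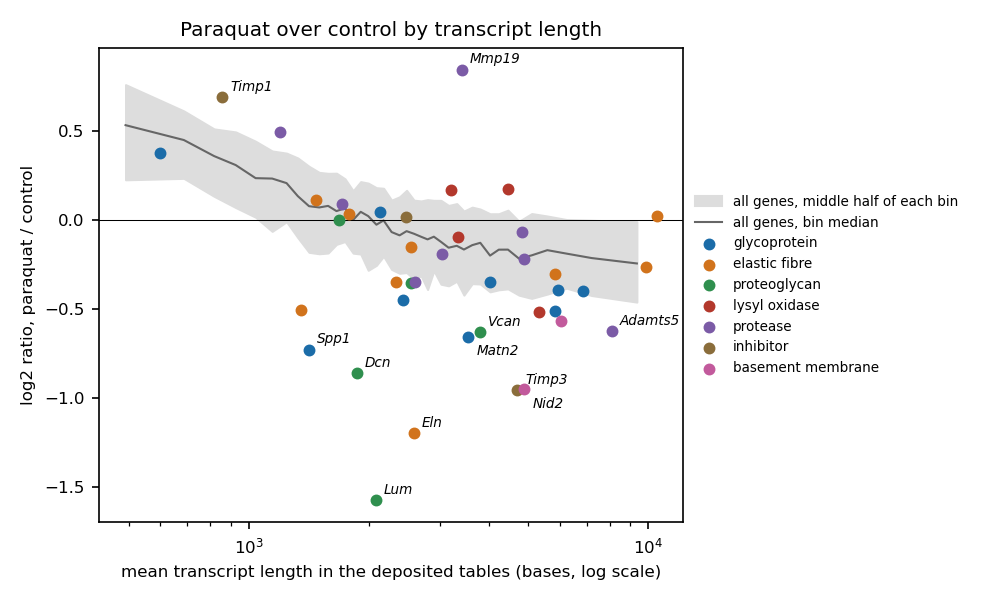
Log2 ratio of paraquat over control (1 library each, scaled CPM with a pseudocount of 0.5) against mean transcript length in bases (log scale) for 40 matrix genes, coloured by class, with names for those past 1.5-fold. The line and band are the median and interquartile range of all genes in 40 length bins, and Eln, Lum, Dcn, Spp1, Timp3, Nid2, Vcan, Matn2 and Adamts5 lie below the band while Timp1 lies above it on the short side.

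Elastin, decorin, osteopontin, Timp3 and nidogen-2 were also lower in paraquat than in mastoparan, a comparison that shares the paraquat library with the preceding one. Of 40 members 6 were at least 1.5-fold lower in paraquat and 1 higher, where 9.27% and 7.72% of 13680 genes were, and 29 lay below 0, where 51.8% of all genes did. The members' median log2 ratio was -0.17 (-0.34 to -0.04), with -0.02 for all genes. Eln was 2.26 times lower in paraquat than in mastoparan (1.69 to 3.07), Dcn 2.05 times (1.33 to 3.24), Spp1 1.97 times (1.52 to 2.56), Timp3 1.91 times (1.64 to 2.22) and Nid2 1.85 times (1.43 to 2.40). Summed with their neighbours, the counts of Timp3 and Nid2 had log2 ratios of -0.25 and 0.04, the second mainly that of Rtraf. Lum (2 counts against 11) and Mmp23 (29 against 22, higher) also passed, with intervals that included 1. On deposited TPM 13 were lower and 0 higher, with the median of all genes at -0.22, and with DESeq2 size factors 6 were lower and 2 higher. Loxl2 (1.46 times lower, 1.19 to 1.79) and Timp1 (1.45-fold higher, 1.31 to 1.60) led the remaining members whose intervals did not include 1. The limit from the shared windows of Loxl2 applies here too. Paraquat was the lowest of the 3 day-8 libraries for 24 of 40 members, where 41.4% of 13584 genes had it lowest, and the highest for 7, where 36.0% had it highest.

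Few matrix genes in the mastoparan library differed from the control by 1.5-fold, as few of all genes did. Of 40 members 1 was at least 1.5-fold lower and 1 higher, against 5.70% and 5.29% of 13640 genes, and 20 lay below 0, where 48.7% of all genes did. The median log2 ratio of the members was 0.00 (-0.07 to 0.07) and that of all genes 0.01. Adamts5 (chr16:85856173-85901828, minus strand), the aggrecanase, was the member with the largest difference. It had 5.61 scaled CPM in mastoparan, 8.66 in paraquat and 13.6 in control, and 8.69 in CypD and 7.10 in Flag. From 16 counts in mastoparan and 42 in control it was 2.43 times lower (1.34 to 4.62). The control was the highest of the 5 libraries for this gene, so mastoparan and paraquat both stood nearer to the day-4 levels. Mmp19, a metalloproteinase, was higher with 12 counts in mastoparan and 6 in control, an interval that included 1.

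Within the classes the largest differences of mastoparan from control were small. Tnc (tenascin C) was 1.20 times lower (1.00 to 1.43), Fbln1 (fibulin-1) had a log2 ratio of -0.26, Vcan of -0.42, Loxl1 of 0.11 and Nid2 of -0.07, the last 4 with intervals that included 1. Among the inhibitors Timp1 was 1.12-fold higher (1.00 to 1.24), with 735 counts in mastoparan and 713 in control. Sparc, the most abundant member, was 1.06-fold higher (1.02 to 1.10), an interval that its 4705 and 4799 counts make narrow, and Thbs1 was 1.14 times lower (1.05 to 1.24). All 4 lysyl oxidase log2 ratios were near 0, between 0.03 and 0.11, with intervals that included 1.

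At day 4 few matrix genes in the CypD library differed from Flag by 1.5-fold, as few of all genes did, while Ppif itself was far higher in it. Of 41 members 2 were at least 1.5-fold lower and 1 higher, against 5.75% and 5.22% of 13244 genes, and all 3 were proteases with few counts. Mmp3 had 6 counts in CypD and 2 in Flag, Mmp19 had 7 and 12, and Mmp23 had 18 and 22, with intervals that included 1. The members' median log2 ratio was -0.06 (-0.14 to 0.05) and that of all genes -0.02. On deposited TPM 2 members passed in each direction.

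Small differences of CypD from Flag were seen in single members. Postn was 1.48-fold higher (1.06 to 2.10), with 107 counts in CypD and 53 in Flag, followed by Eln (1.33-fold, 1.03 to 1.74), Efemp2, the gene of fibulin-4 (1.26-fold, 1.06 to 1.51), and Timp1 (1.18-fold, 1.04 to 1.33). Fbln2, Thbs1 and Thbs2 were 1.16, 1.14 and 1.17 times lower in CypD. Among the classes without such a member, Ogn (0.28), Loxl1 (-0.33) and Nid2 (-0.19) had the largest log2 ratios, with intervals that included 1. Of all 41 members 26 lay below 0, where 53.0% of all genes did, among them 7 of the 9 proteases and 1 of the 5 proteoglycans.

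**Figure D4:**
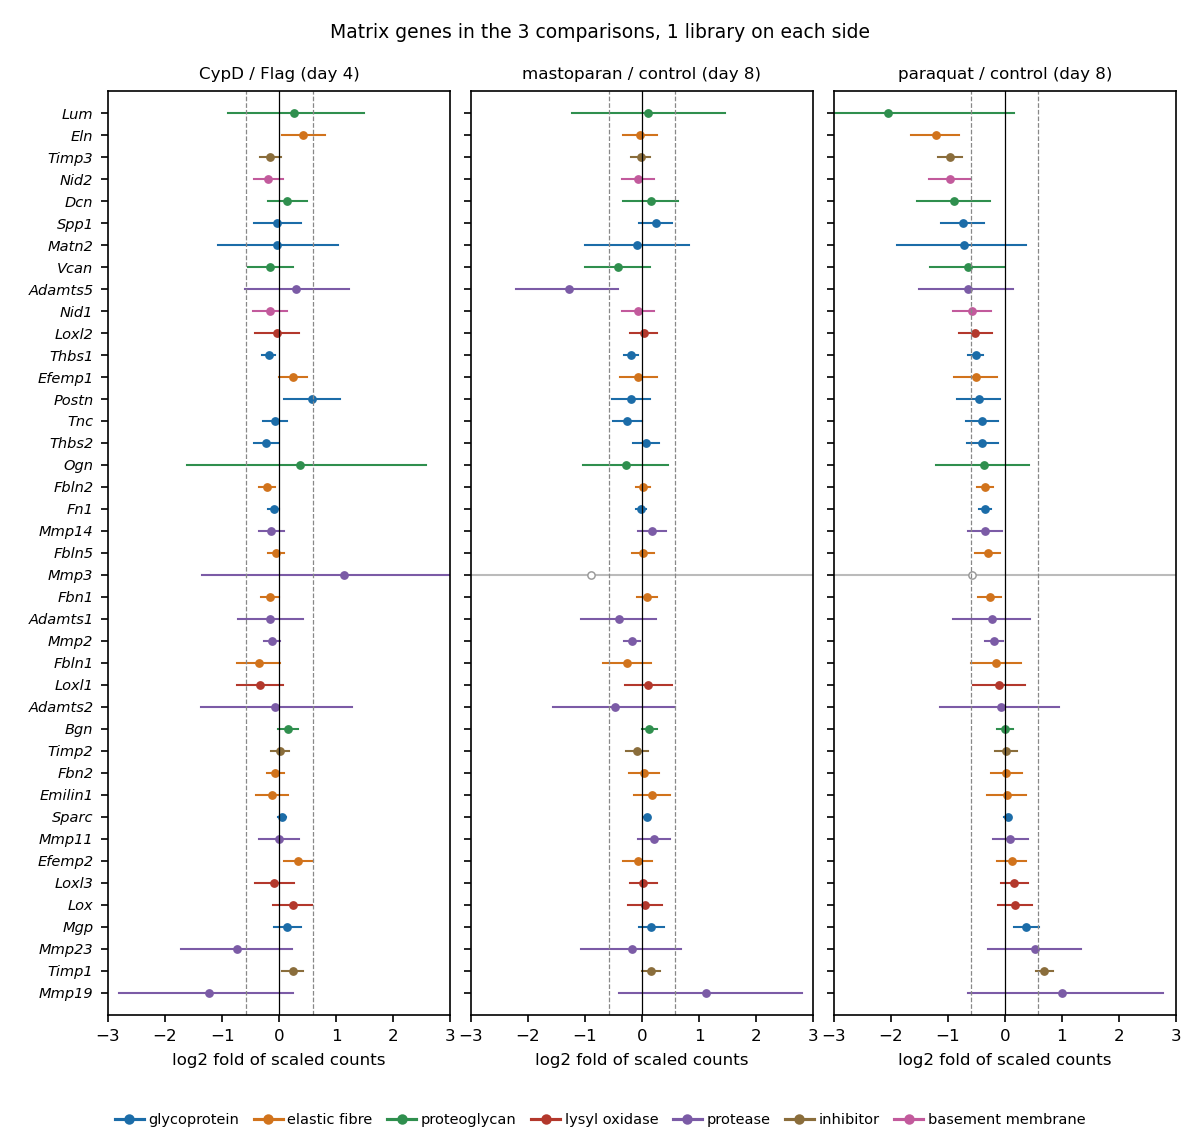
Log2 fold of scaled counts of the 41 matrix genes in CypD over Flag, mastoparan over control and paraquat over control, 1 library on each side, with 95% counting intervals cut at the axis limits, dashed lines at 1.5-fold and open grey points for Mmp3 where it was below the 1 CPM minimum. Paraquat places Eln, Timp3, Nid2, Dcn, Spp1 and Vcan left of the lower line with their intervals clear of 0, and Timp1 right of the upper line, while in mastoparan Adamts5 alone lies past a line with an interval clear of 0.

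Between day 8 and day 4 matrix genes differed in both directions, in numbers near the shares of all genes. The periostin, biglycan, osteoglycin and elastin genes were higher in the day-8 control, as were Loxl2 and Loxl3, with limits from shared windows given below. The fibrillin-2, decorin, fibulin-5 and versican genes were higher in the day-4 Flag library. Of 40 members 9 were at least 1.5-fold higher and 7 lower in the day-8 control, against 18.6% and 12.9% of 13540 genes, and the members' median log2 ratio was 0.04 (-0.32 to 0.38), with -0.000129 for all genes. The control and Flag libraries differ in day and, by their labels, in the expressed construct, so that the 2 cannot be told apart here, and this comparison uses the same control and Flag libraries as the others. Epithelial markers moved with the day (651 CPM in the control and 208 in Flag), and their part in these results was not tested.

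Postn had 48.8 scaled CPM in mastoparan, 40.7 in paraquat and 55.8 in control at day 8, against 31.0 in CypD and 20.9 in Flag at day 4. All 3 day-8 libraries were above both day-4 libraries, and the control was 2.67-fold above Flag (1.95 to 3.70). Ogn (chr13:49608046-49624501, plus strand), the osteoglycin gene, had 10.2 scaled CPM in mastoparan, 9.53 in paraquat and 12.3 in control, against 2.03 in CypD and 1.58 in Flag. It had the largest fold of the members, 7.81 (2.81 to 30.1), from 38 counts in the control and 4 in Flag. Bgn, of the same proteoglycan family, was 1.74-fold higher (1.56 to 1.95), with 994 counts in the control and 469 in Flag.

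Loxl2 and Loxl3, lysyl oxidase-like crosslinking enzymes, were 2.44-fold (1.93 to 3.10) and 2.07-fold (1.68 to 2.56) higher in the day-8 control than in Flag. Loxl2 had 96.1 scaled CPM in mastoparan, 65.9 in paraquat and 94.4 in control, against 37.6 in CypD and 38.7 in Flag. Loxl2 shares 45.1% of its windows with many other loci, the most of any member. Loxl3 shares 8.61% with its neighbour Htra2, which had 406 counts in the control and 349 in Flag. The summed counts of both had a log2 ratio of 0.33, against 1.04 for Loxl3 alone. On deposited TPM Loxl3 did not pass 1.5-fold. Lox was 1.36-fold higher (1.08 to 1.72) and Loxl1 had a log2 ratio of -0.28. Spp1 was 1.78-fold higher (1.38 to 2.32), Eln 1.70-fold (1.33 to 2.2) and Adamts5 1.92-fold (1.08 to 3.54). Adamts2, a procollagen N-proteinase, passed with 21 counts in the control and 10 in Flag, with an interval that included 1, and its log2 ratio was -0.28 on deposited TPM.

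Fbn2 (chr18:58008623-58210487, minus strand), the gene of the fibrillin prominent in embryonic microfibrils, gave the largest difference in the other direction. It had 84.9 scaled CPM in mastoparan, 84.5 in paraquat and 83.0 in control at day 8, against 235 in CypD and 247 in Flag at day 4. The 3 day-8 values lay within 2 CPM of each other, and the control was 2.97 times lower than Flag (2.56 to 3.45). Dcn was 2.04 times lower in the control (1.52 to 2.76), Fbln5 1.87 times (1.66 to 2.11), Vcan 1.85 times (1.35 to 2.56), Efemp1 1.56 times (1.27 to 1.92) and Timp2 1.53 times (1.36 to 1.73). Timp2 did not pass 1.5-fold on deposited TPM, nor with the length trend removed, where its log2 ratio was -0.56. Fbn1, the other fibrillin gene, had a log2 ratio of -0.58, which did not reach 1.5-fold. Mmp19 had 6 counts in the control and 12 in Flag, and of the nidogens Nid2 was 1.27 times lower (1.06 to 1.53). The sum of Nid2 and Rtraf, which gives most of those counts, had a log2 ratio of 0.05.

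Across all 5 libraries 12 of 40 members had all 3 day-8 levels above both day-4 levels, where 28.5% of 13584 genes did, and 15 had all 3 below, where 28.1% did. The 12 were Postn, Sparc, Spp1, Fbln2, Bgn, Ogn, Lox, Loxl2, Loxl3, Mmp11, Adamts2 and Timp1. Of the 15, 5 were elastic fibre genes (Fbln5, Fbn1, Fbn2, Emilin1 and Efemp1), 3 were glycoproteins (Tnc, Thbs1 and Thbs2) and 3 proteoglycans (Dcn, Lum and Vcan), and the rest were Mmp14, Adamts1, Timp2 and Nid2. The inhibitors were again divided, with Timp1 on the first list and Timp2 on the second.

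**Figure D5:**
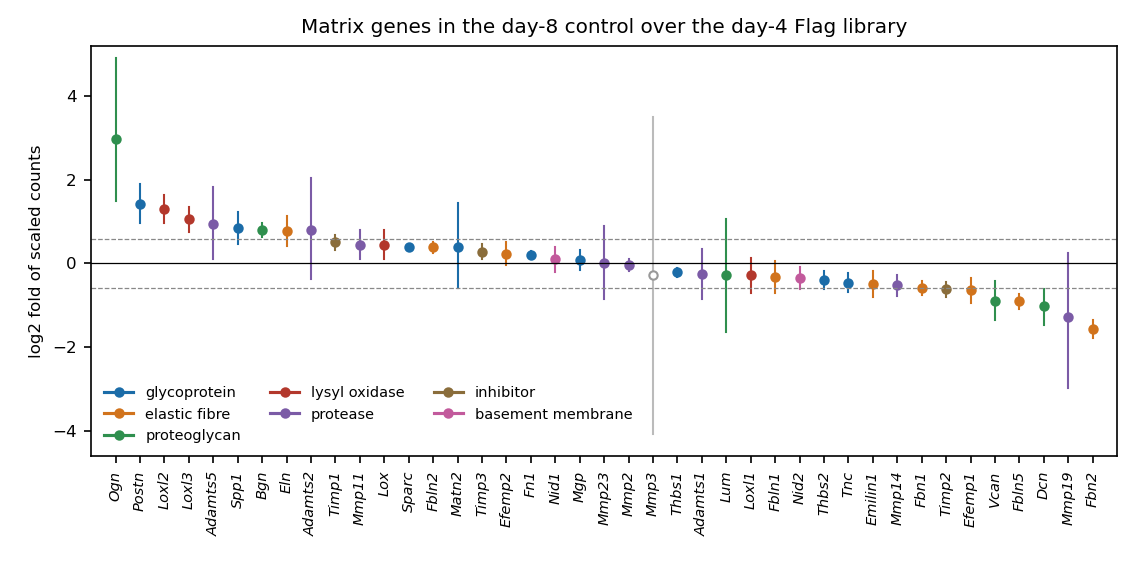
Log2 fold of scaled counts of the 41 matrix genes in the day-8 control over the day-4 Flag library, 1 library each, ordered by size, with 95% counting intervals, dashed lines at 1.5-fold and an open grey point for Mmp3, which was below the 1 CPM minimum. Ogn, Postn, Loxl2 and Loxl3 stand at the high end and Fbn2 and Dcn at the low end with intervals clear of 0.

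A further 133 matrix genes outside the members, covering other glycoproteins and proteoglycans, assembly enzymes, laminins and remodelling enzymes, are set beside the members. In paraquat against control 15 of 91 measured genes were at least 1.5-fold lower and 2 higher, against 10.5% and 8.22% of 13666 genes. Their median log2 ratio was -0.16 (-0.22 to -0.09). Reck, which encodes a membrane-anchored inhibitor of metalloproteinases, was 2.38 times lower (1.36 to 4.38), from 17 counts in paraquat and 54 in control. Adam9, a membrane-bound metalloproteinase, was 1.95 times lower (1.41 to 2.73), Mmp28 1.68 times (1.17 to 2.43), and Lamc1, the laminin gamma-1 chain, 1.53 times (1.35 to 1.75). Aspn, with a log2 ratio of -0.60, had 9 counts in paraquat and 19 in control.

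For the same genes paraquat against mastoparan gave 13 of 91 lower and 5 higher, against 9.27% and 7.72% of 13680 genes, with a median of -0.13. P4ha3, a subunit of the prolyl hydroxylase that modifies collagen, was 2.94 times lower in paraquat than in mastoparan (1.31 to 7.43), from 8 and 29 counts, and Reck 2.29 times (1.29 to 4.24). Adam9 was 1.53 times lower (1.08 to 2.17), and Aspn and Ccn4 had log2 ratios of -0.63 and -0.60 from few counts. Mastoparan against control gave 7 of 95 in each direction, where 5.70% of 13640 genes were lower and 5.29% higher, and a median of -0.01. In it P4ha3 was 2.09-fold higher (1.09 to 4.20) and Lama5, a laminin chain, 1.25 times lower (1.13 to 1.38). Ccn4 (0.67), Adamts4 (0.58), Adam9 (-0.35) and Mmp28 (-0.32) had intervals that included 1. CypD against Flag gave 8 of 95 higher and 7 lower, against 5.22% and 5.75% of 13244 genes, with a median of -0.05. Adamts10, 1.58 times lower (1.15 to 2.19) from 74 and 86 counts, led the named genes. Hpse, the heparanase gene, was 1.57 times lower (1.00 to 2.48). Mmp15 (0.56), Loxl4 (-0.55), P4ha3 (-0.53) and Reck (-0.39) had intervals that included 1.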

How the data were processed

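The 5 RNA-seq libraries, 1 per group, took 1 ug of Trizol-extracted RNA through a TruSeq RNA kit, per the labels' protocols. Bowtie2 2.2.5 and mm10 are named in the submitters' processing notes, while the sources used here give no counting program, annotation or strand setting. The deposited tables list, per the file headers, a gene's expected count, TPM and FPKM, beside a transcript length and an effective length in bases. The deposited FPKM column was not used. Symbols came from GENCODE M21 (GRCm38, the assembly of mm10) for 28756 of 29267 IDs (98.3%).

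Expected counts were rounded and scaled by TMM factors over the 5 libraries (edgeR 4.0.16, R 4.3.3), which ranged from 0.951 to 1.02. A log2 ratio compares scaled CPM after adding 0.5 CPM, in genes whose mean over both libraries reached 1 CPM, so a member can pass through its higher library alone. Folds compare scaled counts without that addition and carry exact Clopper-Pearson 95% intervals. Reads are not independent molecules, so intervals and floors cover counting error only, and they are not adjusted for the number of genes. Intervals of medians describe the spread between genes. With 1 library per group no test was made: a gene is counted from 1.5-fold, beside the share of all genes. Windows of 49 bases of GENCODE transcripts were matched on both strands to those of other genes. Alternatives were library totals, DESeq2 1.42.0 size factors, deposited TPM, other minimums and pseudocounts, and removal of the length trend over 40 bins. Leaving out members with at least 5% of shared windows, or adding the counts of genes that hold at least 5% of them, was chosen after seeing the data.

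Named in full are members past 1.5-fold whose interval does not include 1, and in each class the member with the highest TPM and the one with the largest log2 ratio. Up to 6 other matrix genes per comparison, with a mean level of 5 CPM or more, are named by the size of their ratio, and some genes that this rule takes are not reported here. The members, lists and comparisons were chosen with earlier results of these data known. The steps were tested on simulated data. Python 3.11.15 with numpy 2.4.6, scipy 1.17.1, pandas 2.3.3 and matplotlib 3.10.9 was used.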

Additional observations from a re-analysis of the deposited data

How the results depend on the processing

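Of 90 recomputed medians and counts 77 stayed within the interval over members (medians) or within 1.5 times (counts), and 13 moved. On deposited TPM the members' median log2 ratio was -0.51 for paraquat against control, with 18 members past 1.5-fold in place of 11, and -0.40 for paraquat against mastoparan, with 13 in place of 7, and 4 in place of 2 passed for mastoparan against control. Medians of all genes there were -0.28 and -0.22 in the paraquat comparisons, and relative to them the members' medians were -0.22 and -0.18. With a minimum mean of 5 CPM 1 member passed for CypD against Flag, in place of 3, and 1 for mastoparan against control. A pseudocount of 2 CPM left 1 for CypD against Flag and 7 for paraquat against control. Without members that share at least 5% of their windows, 33 remained, of which 7 passed in paraquat over control, 4 in paraquat over mastoparan, 1 in mastoparan over control and 1 in CypD over Flag. Members past 1.5-fold changed sign in 6 recomputed ratios. Summed with genes that share their sequence, Mmp19 had log2 ratios of 0.041 for CypD against Flag, -0.17 for paraquat against control and 0.27 for the day-8 control against Flag, and Nid2 had 0.15 for paraquat against control and 0.037 for paraquat against mastoparan. Most of the counts in these sums were those of the partners Tmem198b and Rtraf, so the signs mainly follow the partner. Adamts2 had -0.28 for the day-8 control against Flag on deposited TPM. The cause was not tested for these changes beyond the summing, the smaller sets or the pseudocount by which they were made. No paired analysis was possible because each group holds 1 library and none carries a replicate number, and for the same reason no library could be left out. Depth limits Mmp3, Mmp19, Lum, Adamts2 and Matn2, which had at most 6, 12, 18, 21 and 24 counts in any library. It also limits Ogn at day 4, with 7 counts in CypD and 4 in Flag.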

Other observations

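Among laminins, the basement membrane proteins that nidogens bind, Lamb3 and Lama3 had few counts at day 4 and more at day 8. Lamb3 had 78.2 scaled CPM in mastoparan, 74.1 in paraquat and 82.7 in control, against 8.11 in CypD and 8.68 in Flag, and the control was 9.53-fold above Flag (95% counting interval, 6.16 to 15.5). Lama3 had 19.7, 13 and 19.8 scaled CPM in mastoparan, paraquat and control, against 6.66 in CypD and 2.76 in Flag, a fold of 7.16 (3.27 to 18.6). The epithelial marker list was higher at day 8 as well, and its part in these values was not tested.

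The largest ratio among the other matrix genes was that of Srgn, the gene of the intracellular proteoglycan serglycin. It had 38.6 scaled CPM in mastoparan, 42.5 in paraquat and 47.0 in control at day 8, against 2.32 in CypD and 0.789 in Flag at day 4, from 145 counts in the control and 2 in Flag (fold 59.6, 16.2 to 497). Htra3, a secreted serine protease, was 4.93-fold higher in the day-8 control (2.06 to 14.3), while P4ha3 was 3.41 times lower (1.85 to 6.61). Of 97 measured genes on these lists 27 were at least 1.5-fold higher in the day-8 control and 13 lower, against 18.6% and 12.9% of 13540 genes.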
